A study of Homo sapiens with 8 samples.

Results

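SR proteins, heterogeneous nuclear ribonucleoproteins (hnRNPs) and the kinases that phosphorylate SR proteins were described in HepG2 cells that overexpress DNMT3A. They were the protein-coding genes whose symbol names an SRSF protein, an hnRNP, a CLK or SRPK kinase, TRA2A, TRA2B, SRRM1, SRRM2 or RSRP1. The rule found 47 of the 58735 genes in the table: 12 SR proteins, 5 SR-like proteins, 4 CLK kinases, 3 SRPK kinases and 23 hnRNPs. HepG2 is an established line of human hepatocellular carcinoma. In 4 libraries the cells carried a lentivirus that overexpresses DNMT3A and were labelled with the genotype DNMT3A overexpression. In the other 4 libraries they carried a control lentivirus and were labelled with the genotype WT. The library names of both groups carry pLV_EGFP, DN for the DNMT3A virus and NC for the control virus. The labels do not say which promoter drives the transgene, whether the cells were clonal, or whether libraries of a group came from separate cultures. DNMT3A is a de novo DNA methyltransferase, and DNA methylation was not measured in these libraries.

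SR proteins bind exonic sequences through RNA recognition motifs and recruit the spliceosome through a domain rich in arginine and serine, while hnRNPs bind nascent RNA and often keep exons or splice sites from being used. SRPK kinases phosphorylate the arginine and serine domain for import into the nucleus, and CLK kinases phosphorylate it further inside the nucleus, which releases SR proteins from nuclear speckles. Genes of both families are known for transcripts with poison exons or retained introns, through which the proteins limit their own level.

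Messenger RNA was captured with poly-T beads and sequenced, and each level below is an FPKM, a fragment number divided by the gene's length and by the total of its library. Reads recovered from the table summed to 15911019 to 17677093 per library. DNMT3A itself averaged 8.93 ± 1.33 FPKM in the DNMT3A libraries and 3.65 ± 0.178 FPKM in the controls (SD, n = 4 each), a log2 change of 1.09 (limma adjusted p = 0.000122). A two-sided exact permutation test gave p = 0.0286, the lowest possible with 70 assignments. All 10 hepatocyte and HepG2 markers averaged at least 1 FPKM and summed to 9889 to 12794 FPKM in DNMT3A libraries and 10108 to 10896 FPKM in controls. ALB was the largest part of that sum, and the markers were not alike: AFP averaged 1143 ± 192 FPKM in DNMT3A libraries and 370 ± 9.28 FPKM in controls, FGB 107 ± 9.13 FPKM in DNMT3A libraries and 34.5 ± 1.52 FPKM in controls, and TTR 17.1 ± 1.30 FPKM in DNMT3A libraries and 6.04 ± 1.24 FPKM in controls (SD, n = 4 each), all without overlap. The part of this difference in the results below was not tested. None of 5 fibroblast, 4 endothelial and 4 leukocyte markers reached a mean of 1 FPKM, and 1 endothelial and 2 leukocyte markers were listed at 0 throughout.

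Of the 4 tested CLK kinases 3 rose, and of the 11 tested SR proteins 5 fell, against 9.93% risen and 10.6% fallen over all tested genes. CLK1, CLK2, CLK3 and RSRP1 rose with DNMT3A, while the SR proteins SRSF1, SRSF4, SRSF6, SRSF7 and SRSF8 and the hnRNPs HNRNPF and HNRNPH3 fell. The other 30 tested members did not pass the threshold, a limma adjusted p of 0.05 over the 11620 genes with a mean of at least 1 FPKM. Over those genes 20.6% were called, 9.93% as risen and 10.6% as fallen. Of the 41 tested members 26.8% were called, 9.76% as risen and 17.1% as fallen. The members were proposed with results of this contrast known, so these counts describe them and test nothing. In bulk RNA, a change in a few cells and a smaller change in all cells cannot be told apart. The median log2 change (DNMT3A minus control, computed from log2(FPKM + 1), as throughout) was -0.05 over the 41 members and -0.01 over all tested genes. The median size of a change, whatever its direction, was 0.16 for members and 0.14 for all tested genes. The SR proteins had a median of -0.21 (0 rose and 5 fell of 11), the CLK kinases of 0.26 (3 rose and 0 fell of 4), and the hnRNPs of -0.03 (0 rose and 2 fell of 19). DNMT3A and control libraries did not overlap in level for 14 members, 5 higher and 9 lower with DNMT3A. Over all tested genes, 25.1% did not overlap, 12.1% higher and 13.0% lower. RSRP1, CLK1, SRSF6, SRSF7 and SRSF8 passed the threshold under every alternative that was run, and each of the other 6 called members lost its call under at least 1 alternative. CLK3 lost it in 13 of 19 alternatives, SRSF4 in 9 of 20, CLK2 in 8 of 20 and HNRNPF in 6 of 20. SRSF1 lost it in 4 of 20 and HNRNPH3 in 1 of 20.

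**Figure D1:**
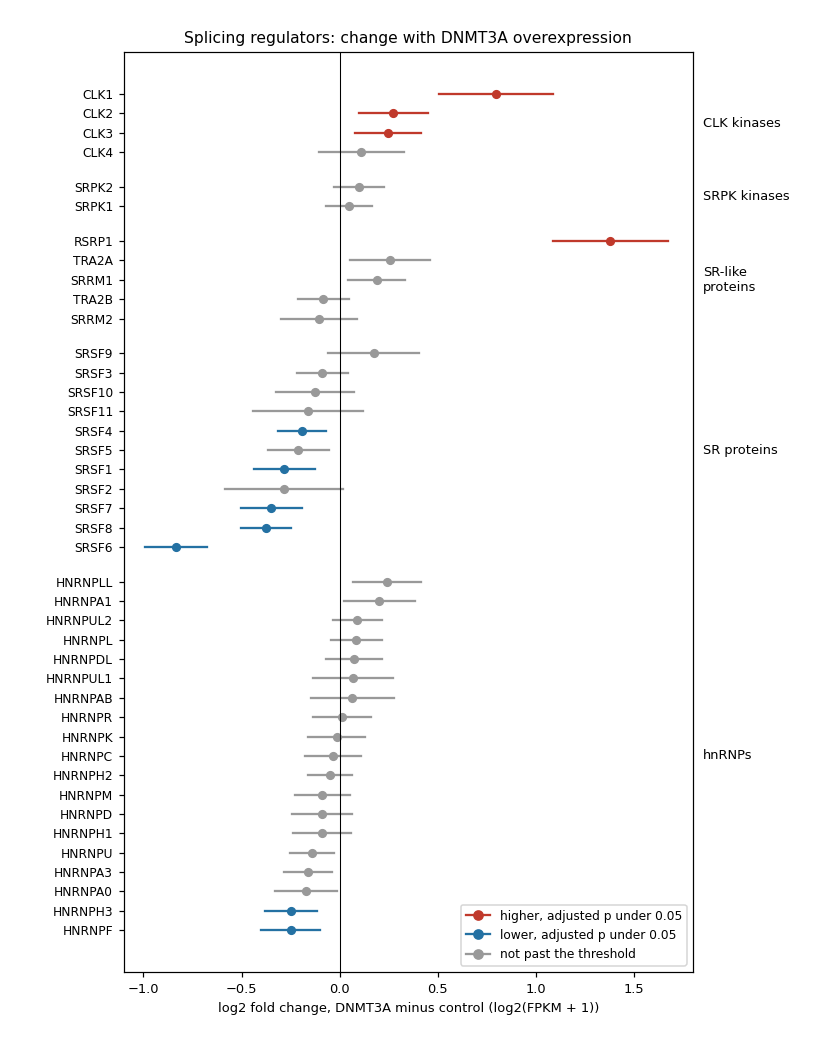
Log2 fold change of each tested member, DNMT3A minus control of log2(FPKM + 1) (x axis), with limma's 95% confidence interval as a line, grouped by class and ordered within each class. RSRP1 and CLK1 lie farthest to the right (1.38 and 0.80) and SRSF6 farthest to the left (-0.83), and most hnRNPs lie close to 0.

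The promoters of the 2 members that rose most and of the 2 SR proteins that fell most are shown because DNMT3A methylates cytosines in CpG dinucleotides, here in capitals. Each is the 250 bases before a RefSeq gene start (GRCh38.p14), 5′ to 3′ on the gene's strand: RSRP1 at chr1:25338255-25338504 (minus strand), CLK1 at chr2:200864659-200864908 (minus strand), SRSF6 at chr20:43457646-43457895 (plus strand) and SRSF8 at chr11:95066669-95066918 (plus strand).
RSRP1: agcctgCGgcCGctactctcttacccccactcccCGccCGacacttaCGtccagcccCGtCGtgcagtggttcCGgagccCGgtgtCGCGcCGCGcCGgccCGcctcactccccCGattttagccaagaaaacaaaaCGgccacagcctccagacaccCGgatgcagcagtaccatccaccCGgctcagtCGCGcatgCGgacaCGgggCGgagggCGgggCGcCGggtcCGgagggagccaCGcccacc
CLK1: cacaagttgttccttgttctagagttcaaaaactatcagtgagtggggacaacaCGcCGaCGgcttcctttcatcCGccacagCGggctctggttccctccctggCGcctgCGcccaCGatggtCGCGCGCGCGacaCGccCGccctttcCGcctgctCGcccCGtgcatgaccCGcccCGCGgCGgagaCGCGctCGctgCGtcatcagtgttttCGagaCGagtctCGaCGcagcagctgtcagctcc
SRSF6: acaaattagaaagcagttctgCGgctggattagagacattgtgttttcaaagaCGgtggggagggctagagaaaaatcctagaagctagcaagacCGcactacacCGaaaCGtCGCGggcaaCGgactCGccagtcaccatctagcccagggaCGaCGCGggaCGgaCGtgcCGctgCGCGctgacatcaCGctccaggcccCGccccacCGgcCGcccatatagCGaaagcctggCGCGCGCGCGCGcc
SRSF8: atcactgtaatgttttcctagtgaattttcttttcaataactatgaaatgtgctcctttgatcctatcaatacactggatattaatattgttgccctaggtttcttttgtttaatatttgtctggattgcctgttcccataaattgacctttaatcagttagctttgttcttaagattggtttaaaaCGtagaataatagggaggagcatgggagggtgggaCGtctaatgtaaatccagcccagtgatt
CpG dinucleotides numbered 29 in the RSRP1 promoter, 30 in that of CLK1 and 28 in that of SRSF6. The median was 24 CpG in the 4 members that rose, 27 in the 7 that fell and 25 in the 27 not past the threshold. Those that rose include CLK2, whose promoter lies 4987 bases from the start of the annotated gene, and CLK3, treated below. Any part of promoter methylation in the changes was not tested. SRSF8, a relative of SRSF2, had 2 in a window that ends 278 bases before the annotated gene. The 38 tested members with a RefSeq promoter had a median of 25.5 CpG in such a window, against 21 over the promoters of tested protein-coding genes, where a gene may have several. At most 3 CpG were found in 8.11% of those promoters and in 2 members, SRSF8 and CLK3, whose promoter lies 9872 bases from the start of the annotated gene. No promoter of HNRNPA1, SRSF2 or TRA2A was used here.

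CLK1, a nuclear dual-specificity kinase of SR proteins, rose most among the kinases (ENSG00000013441, hg38 chromosome 2, 200853009 to 200864744, minus strand). Its level was 14.9, 13.6, 15.9 and 18.1 FPKM in DNMT3A libraries 1 to 4, against 6.67, 10.5, 9.59 and 7.82 FPKM in control libraries 1 to 4. Every DNMT3A library was above every control library, and the ratio of the means was 1.81. The log2 change was 0.80 ± 0.130 (SE, limma adjusted p = 0.00344). CLK2, which phosphorylates SR proteins in the same way, had 6.68, 7.02, 8.31 and 7.76 FPKM in DNMT3A libraries and 6.19, 6.28, 5.25 and 6.22 FPKM in controls. The groups lay close together without overlap, and the log2 change was 0.27 ± 0.0785 (SE, limma adjusted p = 0.0367). CLK3, a further kinase of the family, was the lowest tested member, with 1.48, 1.74, 1.61 and 1.47 FPKM in DNMT3A libraries and 1.14, 1.28, 1.13 and 1.11 FPKM in controls. Its log2 change was 0.25 ± 0.0752 (SE, limma adjusted p = 0.0440), and its ratio of means, which the added pseudocount does not damp, was 1.35. CLK4, the nearest relative of CLK1, had 2.34, 2.17, 2.49 and 2.73 FPKM in DNMT3A libraries and 1.83, 2.60, 2.45 and 1.90 FPKM in controls. Those ranges overlapped and the log2 change of 0.11 did not pass the threshold (limma adjusted p = 0.454). The interval of the CLK4 change ran from -0.11 to 0.33, below the whole interval of CLK1, 0.51 to 1.09; the difference between the genes was not tested. The call of CLK2 was lost without DNMT3A library 3 or 4, or when any control library was left out (limma adjusted p = 0.0564 to 0.0994), and that of CLK3 when any library was left out (0.0535 to 0.107). With a correction for gene length and GC content the CLK3 change was 0.16 (limma adjusted p = 0.172).

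The cytoplasmic kinases differed little between the groups. SRPK1, the kinase that primes SR proteins for nuclear import, averaged 36.2 ± 1.47 FPKM in DNMT3A libraries and 35.0 ± 1.30 FPKM in controls (SD, n = 4 each). SRPK2, its paralogue, averaged 5.29 ± 0.265 FPKM in DNMT3A libraries and 4.87 ± 0.234 FPKM in controls. Their log2 changes were 0.05 and 0.10, with intervals of -0.07 to 0.17 and -0.03 to 0.23, and neither passed the threshold (limma adjusted p = 0.556 and 0.248). SRPK1 thus stood far above every CLK kinase in length-scaled level in both groups. SRPK3, known from muscle, lay between 0.0485 and 0.0604 FPKM in DNMT3A libraries and between 0.0529 and 0.0980 FPKM in controls, under the minimum for testing.

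RSRP1, a protein rich in arginine and serine, was the member that rose most (ENSG00000117616, hg38 chromosome 1, 25242237 to 25338213, minus strand). It had 5.93, 6.66, 6.95 and 8.36 FPKM in DNMT3A libraries and 1.64, 2.89, 1.75 and 2.05 FPKM in controls. Every DNMT3A library lay well above every control library, and the ratio of the means was 3.35. The log2 change was 1.38 ± 0.131 (SE, limma adjusted p = 0.000208); with a pseudocount of 0.1 it was 1.72. RSRP1 had 297 of its 6804 exon bases (4.37%) in common with TMEM50A, whose log2 change of -0.15 did not pass the threshold (limma adjusted p = 0.178). TRA2A and TRA2B, homologues of the fly sex determination factor Transformer 2, bind purine-rich exonic enhancers. TRA2A had 20.4, 17.1, 22.3 and 23.3 FPKM in DNMT3A libraries and 15.9, 18.2, 17.5 and 16.9 FPKM in controls. DNMT3A library 2 lay within the control range, and the log2 change of 0.26 did not pass (limma adjusted p = 0.0756), though it did without that library (0.34, limma adjusted p = 0.00954). TRA2B had a log2 change of -0.08 (limma adjusted p = 0.335). The splicing coactivators SRRM1 and SRRM2 bridge SR proteins and the spliceosome core. SRRM1 lay between 12.4 and 13.9 FPKM in DNMT3A libraries and between 10.4 and 12.2 FPKM in controls, without overlap. Its log2 change of 0.19 missed the threshold (limma adjusted p = 0.0701), and without DNMT3A library 4 it passed (limma adjusted p = 0.0466). SRRM2, a large scaffold of nuclear speckles, had a log2 change of -0.11 (limma adjusted p = 0.423).

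**Figure D2:**
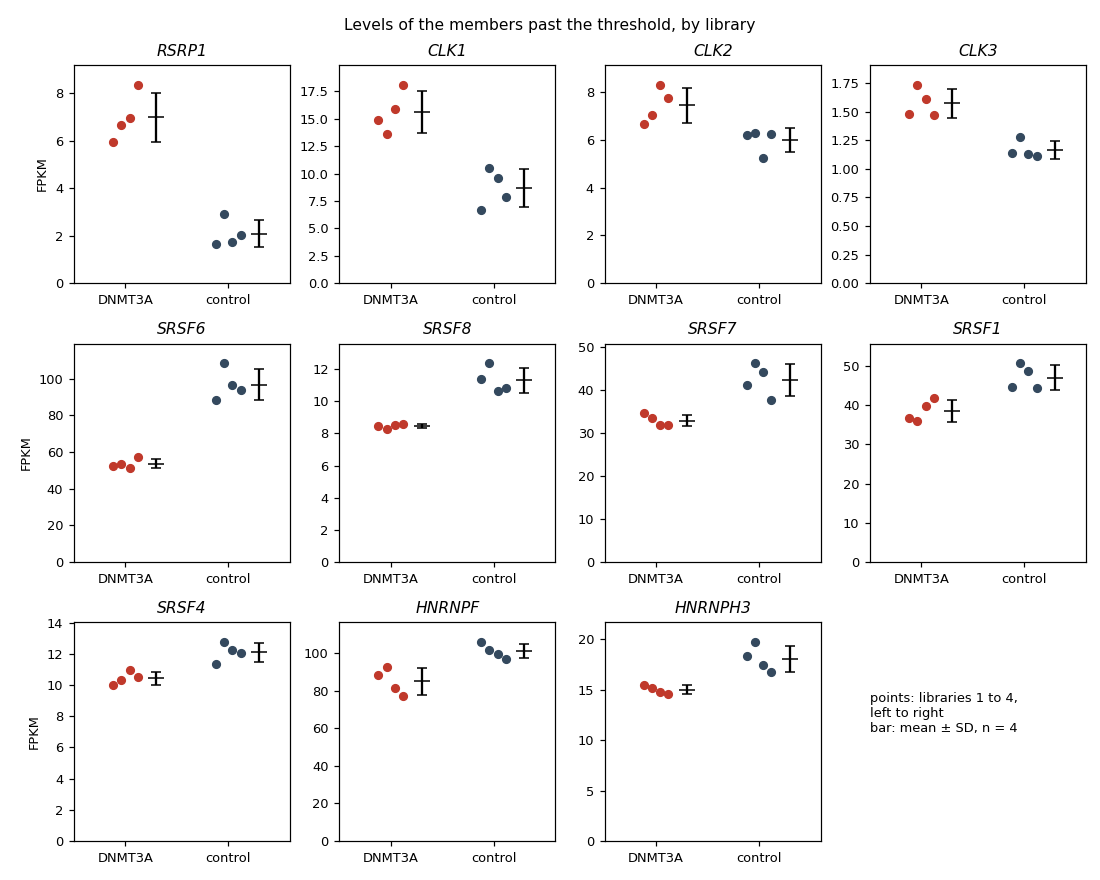
FPKM (y axis, from 0) of the 11 members past the threshold, each point a library and each bar the mean ± SD of 4 libraries, DNMT3A left and control right. RSRP1, CLK1 and SRSF6 show the widest gaps between the groups, while for SRSF1 and SRSF4 the highest DNMT3A library (41.7 and 11.0 FPKM) lies just below the lowest control library (44.2 and 11.3 FPKM).

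The SR proteins were lower or not distinguishable, and none rose. SRSF6, which regulates exon use in many transcripts including that of tau, fell most (ENSG00000124193, hg38 chromosome 20, 43457928 to 43464247, plus strand). It had 52.6, 53.6, 51.1 and 57.4 FPKM in DNMT3A libraries and 88.5, 108, 96.4 and 93.6 FPKM in controls. The groups were far apart, and the DNMT3A mean was 0.556 times the control mean. The log2 change was -0.83 ± 0.0701 (SE, limma adjusted p = 0.00011). SRSF8 (ENSG00000263465, hg38 chromosome 11, 95067197 to 95071224, plus strand) had 8.45, 8.26, 8.53 and 8.60 FPKM in DNMT3A libraries and 11.4, 12.3, 10.6 and 10.8 FPKM in controls. Its DNMT3A libraries were the tightest of any tested member in that group, with a coefficient of variation of 1.74%, and its log2 change was -0.38 ± 0.057 (SE, limma adjusted p = 0.00236). SRSF7 (ENSG00000115875, hg38 chromosome 2, 38743599 to 38751494, minus strand), an SR protein with a zinc knuckle that also acts in mRNA export, had 34.6, 33.5, 31.8 and 31.8 FPKM in DNMT3A libraries and 41.1, 46.2, 44.1 and 37.7 FPKM in controls. The groups did not overlap, and the log2 change was -0.35 ± 0.0689 (SE, limma adjusted p = 0.00787).

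Smaller falls were found in SRSF1 and SRSF4. SRSF1, the founding member of the family and a known proto-oncogene, had 36.6, 35.8, 39.7 and 41.7 FPKM in DNMT3A libraries and 44.5, 50.6, 48.7 and 44.2 FPKM in controls, a log2 change of -0.28 ± 0.0688 (SE, limma adjusted p = 0.0187). SRSF4, which has a long arginine and serine domain, had 10.0, 10.3, 11.0 and 10.5 FPKM in DNMT3A libraries and 11.3, 12.7, 12.3 and 12.0 FPKM in controls. Its log2 change was -0.19 ± 0.0548 (SE, limma adjusted p = 0.0347). Neither gene's groups overlapped. The SRSF1 call was lost without DNMT3A library 1 or control library 2 or 3 (limma adjusted p = 0.0533 to 0.0602), and that of SRSF4 when any library other than control library 1 was left out (0.0501 to 0.0949). SRSF1 shares 440 of its 3340 exon bases (13.2%) with AC015813.5, whose log2 change of 0.20 did not pass (limma adjusted p = 0.146).

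The other 6 tested SR proteins did not pass the threshold. SRSF2, which marks nuclear speckles, had 66.2, 69.2, 77.5 and 90.5 FPKM in DNMT3A libraries and 74.4, 114, 97.1 and 86.4 FPKM in controls. The ranges overlapped, and the log2 change of -0.28 had an interval from -0.59 to 0.02 (limma adjusted p = 0.165). SRSF2 shares 1106 of its 3017 exon bases (36.7%) with MFSD11, so its level is uncertain, since no strand-specific counting is stated; 10 tested members share some exon bases with another gene that averaged at least 1 FPKM. SRSF5 lay between 24.7 and 29.5 FPKM in DNMT3A libraries and between 29.0 and 32.7 FPKM in controls. Its log2 change was -0.21 (limma adjusted p = 0.0599), and without DNMT3A library 3 it passed (-0.26, limma adjusted p = 0.0374). SRSF3, the smallest SR protein, SRSF10, a repressor of splicing when dephosphorylated, and SRSF11 had log2 changes of -0.09, -0.13 and -0.16 (limma adjusted p = 0.306, 0.337 and 0.395). SRSF9 alone of the 11 had a positive estimate, 0.17, with an interval from -0.06 to 0.41 (limma adjusted p = 0.263). It shares 1729 of 3744 exon bases (46.2%) with GATC, which rose (log2 0.41, limma adjusted p = 0.00349), and the part of those shared bases in the SRSF9 value was not tested. SRSF12, a low SR protein, had 0.151, 0.0480, 0.253 and 0.325 FPKM in DNMT3A libraries and 0.0828, 0.0255, 0.0695 and 0.0125 FPKM in controls, under the minimum for testing. Fitted without that minimum, its limma adjusted p was 0.212.

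**Figure D3:**
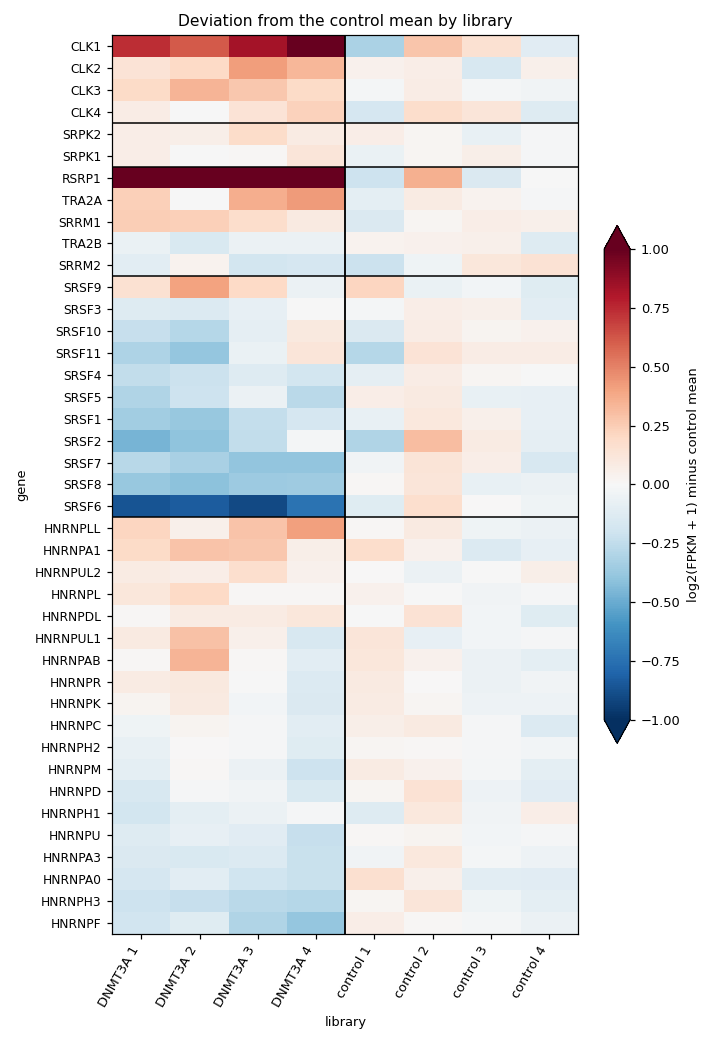
Deviation of each library from the control mean of log2(FPKM + 1) (colour, limited to 1 in either direction) for the 41 tested members by class, DNMT3A libraries left and controls right. RSRP1 and CLK1 are raised and SRSF6 is lowered in every DNMT3A library, and control library 2 is raised over much of its column.

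The hnRNPs had the highest summed level of the classes, and 2 of their 19 tested genes (10.5%) fell and 0 rose. Over all tested genes 10.6% fell and 20.6% were called in either direction. HNRNPF, which binds runs of guanine near exons, had 88.4, 92.8, 81.5 and 76.9 FPKM in DNMT3A libraries and 106, 102, 99.4 and 96.8 FPKM in controls. The groups did not overlap, and the log2 change was -0.25 ± 0.0672 (SE, limma adjusted p = 0.0285). HNRNPH3, a relative of HNRNPF, had 15.5, 15.2, 14.8 and 14.6 FPKM in DNMT3A libraries and 18.3, 19.7, 17.4 and 16.8 FPKM in controls, again without overlap. Its log2 change was -0.25 ± 0.0592 (SE, limma adjusted p = 0.0171). The closer paralogues HNRNPH1 and HNRNPH2 had log2 changes of -0.09 and -0.05, neither past the threshold (limma adjusted p = 0.358 and 0.513). The call of HNRNPF was lost without DNMT3A library 3 or control library 1, 2 or 3 (limma adjusted p = 0.0656 to 0.0814), and that of HNRNPH3 without DNMT3A library 3 (0.0511).

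HNRNPA1, a shuttling protein that silences exons, had the highest level of all members. It had 229, 244, 241 and 209 FPKM in DNMT3A libraries and 226, 206, 182 and 189 FPKM in controls. The ranges overlapped, and the log2 change of 0.20 did not pass (limma adjusted p = 0.108). The table also held 76 genes with symbols of HNRNPA1 copies, 31 of them above 0 in some library and together at 29.1 FPKM in DNMT3A libraries and 23.9 FPKM in controls on average. Reads may be split between the gene and these copies, so its level is uncertain, as are those of HNRNPA3, HNRNPC, HNRNPK and HNRNPL, whose copies summed to averages of 7.24, 11.6, 4.91 and 2.98 FPKM in DNMT3A libraries and 5.80, 9.00, 4.48 and 2.50 FPKM in controls. HNRNPA3, a relative of HNRNPA1, lay between 99.2 and 106 FPKM in DNMT3A libraries and between 112 and 125 FPKM in controls. HNRNPU, a scaffold protein of nuclear RNA and chromatin, lay between 28.5 and 31.7 FPKM in DNMT3A libraries and between 33.0 and 34.2 FPKM in controls. Neither gene's groups overlapped, and their log2 changes of -0.16 and -0.14 missed the threshold (limma adjusted p = 0.0618 and 0.0778). HNRNPLL, which regulates CD45 splicing in lymphocytes, lay between 13.8 and 18.0 FPKM in DNMT3A libraries and between 12.7 and 14.2 FPKM in controls. Its log2 change of 0.24 also missed the threshold (limma adjusted p = 0.0557) and passed without DNMT3A library 2 (0.30, limma adjusted p = 0.0147). HNRNPA0, a further relative of HNRNPA1, had a log2 change of -0.17 (limma adjusted p = 0.111).

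The other 10 tested hnRNPs, HNRNPAB, HNRNPC, HNRNPD, HNRNPDL, HNRNPK, HNRNPL, HNRNPM, HNRNPR, HNRNPUL1 and HNRNPUL2, had log2 changes from -0.09 to 0.09. HNRNPK, which binds runs of cytosine, had 117, 122, 112 and 103 FPKM in DNMT3A libraries and 121, 116, 111 and 110 FPKM in controls, a log2 change of -0.02 with an interval from -0.16 to 0.13 (limma adjusted p = 0.887). HNRNPC, which binds runs of uridine, had 80.8, 85.0, 82.8 and 77.5 FPKM in DNMT3A libraries and 86.8, 89.0, 82.9 and 75.6 FPKM in controls. Its log2 change was -0.03 with an interval from -0.18 to 0.11 (limma adjusted p = 0.738). HNRNPC lies on chromosome 14 between 20 and 45 Mb, where 88 of 114 tested genes rose and 0 fell, with a median log2 change of 0.49. Over all tested genes 9.93% rose. The stretch was chosen with results of this contrast known, so its count is a description. HNRNPCL1, HNRNPCL2, HNRNPCL3 and HNRNPCL4, relatives of HNRNPC, were listed at 0 in all 8 libraries, where 3 reads would give at most 0.215 FPKM.

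Summed by class, the SR proteins came to 371 ± 23.4 FPKM in DNMT3A libraries and 465 ± 39.0 FPKM in controls (SD, n = 4 each), without overlap. The CLK kinases summed to 27.1 ± 2.57 FPKM in DNMT3A libraries and 18.0 ± 2.08 FPKM in controls, also without overlap. The SR-like proteins summed to 96.4 ± 1.13 FPKM in DNMT3A libraries and 90.3 ± 5.86 FPKM in controls, close together but again without overlap. The SRPK kinases summed to 41.5 ± 1.42 FPKM in DNMT3A libraries and 39.9 ± 1.12 FPKM in controls, with overlap. The hnRNPs summed to 1057 ± 53.2 FPKM with DNMT3A and 1066 ± 52.9 FPKM in controls, a difference smaller than either SD. SRSF6 and SRSF2, both highly expressed, carry much of the SR protein sum. SRSF6 alone averaged 53.7 FPKM in DNMT3A libraries and 96.7 FPKM in controls. The separation of the SR protein sums depends on SRSF6 and does not show a fall across the class. CLK1 is the largest part of the CLK sum, at 15.6 FPKM on average in DNMT3A libraries and 8.65 FPKM in controls. The CLK4 groups overlapped. All members together made up 0.764% of the FPKM outside mitochondrial genes in DNMT3A libraries and 0.786% in controls. Sums of FPKM weigh members by level, and a fixed library total means that lower values of some genes raise others.

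**Figure D4:**
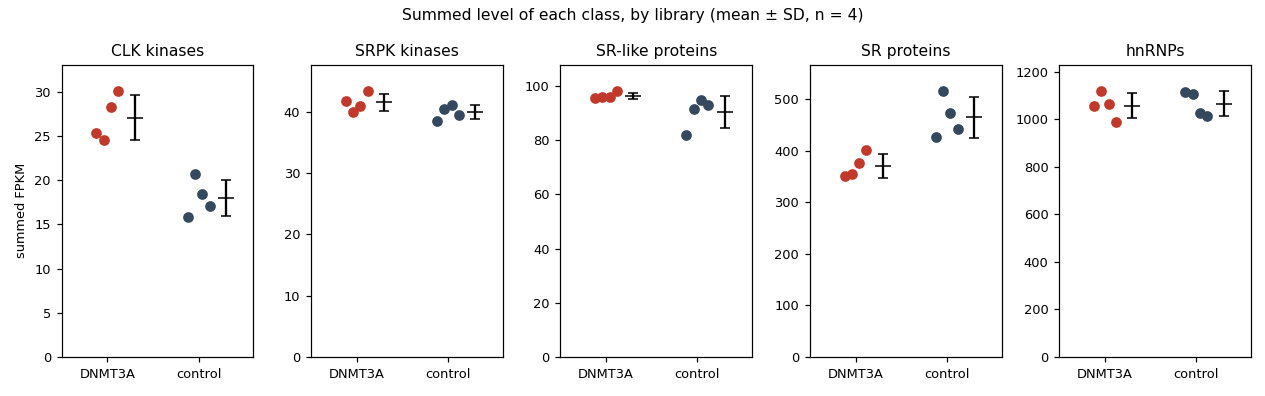
Summed FPKM (y axis, from 0, a scale of its own in each panel) of the members of each class, each point a library and each bar the mean ± SD of 4 libraries, DNMT3A left and control right. The CLK, SR-like and SR protein panels show groups that do not overlap, on average 27.1 against 18.0, 96.4 against 90.3 and 371 against 465 FPKM. The SRPK and hnRNP panels show overlapping groups.

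Libraries of a group also differed in ways that crossed the classes. Control library 2 held the highest control value of 24 of the 41 tested members, among them CLK1, CLK3, CLK4 and RSRP1 but also SRSF1, SRSF2, SRSF4, SRSF6, SRSF7 and SRSF8. Control library 4 held the lowest of 19. DNMT3A library 4 held the lowest DNMT3A value of 19 members and the highest of 15, with RSRP1, CLK1 and SRSF6 among the 15. The median coefficient of variation of a member was 6.74% in DNMT3A libraries and 6.77% in controls, and it exceeded the counting error in 39 of 41 members in either group. RSRP1 varied most among controls, at 27.2%, and SRSF11 among DNMT3A libraries, at 16.7%. The fewest reads behind a value of a tested member were 315 in DNMT3A libraries and 178 in controls, and counting error at a member's mean reads in its group would give a coefficient of variation of at most 5.42% in DNMT3A libraries and 6.49% in controls.

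MALAT1, a nuclear-retained long noncoding RNA of speckles, rose alongside RSRP1 and CLK1. It averaged 12.8 ± 2.03 FPKM in DNMT3A libraries and 8.87 ± 1.90 FPKM in controls (SD, n = 4 each), a log2 change of 0.49 (limma adjusted p = 0.0413). By library it had 10.8, 12.1, 12.7 and 15.6 FPKM with DNMT3A and 6.41, 10.0, 8.37 and 10.7 FPKM in controls. MALAT1 was thus highest in DNMT3A library 4 and lowest in control library 1, as were RSRP1 and CLK1. SRSF6, which fell, also had its highest DNMT3A value and its lowest control value in these libraries (57.4 and 88.5 FPKM). DNMT3A library 4 held the highest DNMT3A value of 15 of the 41 tested members. Control library 1 held the lowest control value of 13. NEAT1, the long noncoding RNA of paraspeckles, had a log2 change of 0.03 (limma adjusted p = 0.919). The part of this shift in the RSRP1 and CLK1 changes was not tested.

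The members share an annotation that bears on what a gene-level value holds. At least 1 transcript subject to nonsense-mediated decay is annotated in GENCODE release 29 for 33 of the 41 tested members (80.5%), against 44.4% of 10038 tested protein-coding genes. Transcripts with a retained intron are annotated for 31 members (75.6%), against 59.5% of those genes. The members also have more annotated transcripts, a median of 12 against 8. All 11 tested SR proteins have a transcript of the decay class, as do CLK1, CLK3 and CLK4 and the 5 SR-like proteins. Of the 19 tested hnRNPs 12 have one. Among the called members, CLK2, HNRNPF and HNRNPH3 have none. An FPKM per gene sums coding, decayed and intron-retaining transcripts, so the changes above do not say which of them moved. FPKM is also divided by the union of exons, 22512 bases for HNRNPU where its longest coding transcript has 6858, which lowers the level of such genes. HNRNPLL and SRSF7, 140 kb apart on chromosome 2, had log2 changes of 0.24 and -0.35, the first not past the threshold. Among other tested genes within 250 kb of a called member, 1 of 4 near RSRP1 (MACO1), 1 of 10 near CLK1 (FAM126B), 3 of 17 near CLK2 (EFNA1, EFNA4 and ASH1L) and 1 of 9 near CLK3 (ARID3B) rose as the member did. In the same distance, 1 of 3 near SRSF6 (SGK2), 1 of 2 near SRSF8 (ENDOD1), 1 of 7 near SRSF1 (AC015813.1) and 1 of 4 near HNRNPF (RASGEF1A) fell as the member did, and ENDOD1 and SRSF8 changed by -0.37 and -0.38 on the log2 scale. None of 3 near SRSF4, 8 near SRSF7 and 4 near HNRNPH3 fell. A gene of the opposite call stood near each of CLK1, CLK2, SRSF1, HNRNPF and HNRNPH3. Over all tested genes 9.93% rose and 10.6% fell, and whether neighbours changed together was not tested.

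The rest of the splicing machinery was taken from lists chosen with earlier results of these data known. Of 156 tested genes 14 rose and 14 fell, 17.9% in all, with a median log2 change of 0.00. Over all 11620 tested genes 20.6% were called, 9.93% as risen and 10.6% as fallen, which is the background for each list below. The equal number belongs to the main fit. Without control library 3, 9 of the genes rose and 3 fell, and with the length and GC correction 18 rose and 23 fell. Among 28 proteins of the U1 and U2 particles 1 rose and 3 fell (median 0.01). SNRPB, a core Sm protein, rose (log2 0.35), while the Sm protein SNRPD2 and the branch site factor SF3B5 fell (-0.32 and -0.42; limma adjusted p = 0.0183, 0.0165 and 0.0185). SF3B1, the largest branch site factor, had 0.06 (limma adjusted p = 0.546). Among 30 proteins of the tri-snRNP, the PRP19 complex and the helicases 4 rose and 1 fell (median 0.03), and the helicase DDX46 rose most (log2 0.29, limma adjusted p = 0.00573).

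Among 19 proteins of the exon junction complex and nonsense-mediated decay 5 rose and 3 fell (median -0.04). PNN, a speckle protein with an arginine and serine domain, averaged 97.1 ± 5.08 FPKM in DNMT3A libraries and 63.2 ± 7.57 FPKM in controls (SD, n = 4 each), a log2 change of 0.62 (limma adjusted p = 0.00165). ACIN1, which takes the place of PNN in the related ASAP complex of the exon junction, rose by 0.57 (limma adjusted p = 0.000796). Both genes lie in the chromosome 14 stretch that holds HNRNPC, and the part of that stretch in their rise was not tested. UPF2, an adaptor of decay, rose by a log2 of 0.31 and its partner UPF3A fell by 0.35 (limma adjusted p = 0.0064 and 0.0112). UPF3A lies on chromosome 13, where 9 of 199 tested genes rose and 66 fell, with a median log2 change of -0.15. Over all tested genes 9.93% rose and 10.6% fell. Among 61 other splicing regulators 2 rose and 6 fell (median -0.02). RBM33, an RNA-binding protein, rose (log2 0.33), and the paraspeckle proteins SFPQ and PSPC1 fell (-0.27 and -0.31; limma adjusted p = 0.0071, 0.00482 and 0.0305), while their partner NONO had 0.03 (limma adjusted p = 0.729). HNRNPA2B1, whose symbol falls outside the rule for members, had 0.13 (limma adjusted p = 0.103).

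Of 14 other kinases and phosphatases of splicing factors 2 rose and 1 fell (median -0.05). PRPF4B, a spliceosomal kinase related to the CLK family, averaged 25.7 ± 1.30 FPKM in DNMT3A libraries and 18.8 ± 0.962 FPKM in controls (SD, n = 4 each), a log2 change of 0.43 (limma adjusted p = 0.00137). TOP1, a topoisomerase that also phosphorylates SR proteins, rose by 0.22 (limma adjusted p = 0.0119). PPP1R10, a nuclear targeting subunit of protein phosphatase 1, fell by 0.51 on the log2 scale (limma adjusted p = 0.000477). The catalytic subunit PPP1CA had -0.17 (limma adjusted p = 0.0822). Of 4 listed proteins of nuclear import and export 0 passed the threshold in limma and 0 had an unadjusted p under 0.05 (median log2 change 0.05). The import receptor TNPO1 had 0.02 and the export adaptor ALYREF 0.08 (limma adjusted p = 0.824 and 0.706).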

How the data were processed

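Poly(A) RNA of HepG2 cells was sequenced in 4 DNMT3A and 4 control libraries, and groups and replicate numbers come from the sample titles. The submitters' processing notes name HISAT2 2.0.5 as aligner and hg38 as build. Which program counted reads, and whether by strand, is not given in the sources used here. Per the file headers, the authors deposited FPKM per gene with a column for each library. Gene coordinates and exon lengths of all 58735 genes were identical to GENCODE release 29. FPKM times length gave whole multiples of a per-library step for 100% of values (within 0.01 of a read), so whole reads were recovered; no libraries were duplicates (chi-square per degree of freedom 4.35 to 23.0 within groups).

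Genes with a mean of at least 1 FPKM were fitted as log2(FPKM + 1) with limma 3.58.1 in R 4.3.3 (intensity trend), with Benjamini-Hochberg adjustment over all 11620 and a threshold of 0.05. A fold change on this scale understates that of low genes. The fit was tested on simulated data. The count test foreseen for a table of raw counts was left out because the values are FPKM; limma-voom on the recovered reads was an alternative. The members, the other gene lists and the tests were chosen with earlier results of these data known, so counts of members are descriptions. Every member could be named; each other list could give up to 4 names by size of change among genes past the threshold and up to 2 by level among the rest, and GATC, TMEM50A, MFSD11, AC015813.5, MALAT1, NEAT1, HNRNPA2B1, AFP, FGB, TTR and genes near members were named after their values were seen. Alternatives were other pseudocounts, filters, scalings, weights, a replicate block, protein-coding genes alone and each library left out. A correction for length and GC content and a fit without chromosomes 13 and 14 were added after seeing the data. Promoters were matched by symbol for 43 members in RefSeq (GRCh38.p14), taking for each the one nearest the annotated start. That distance reached 40242 bases, for SRSF5. Labels do not say that libraries of a group came from separate cultures, so p-values cover only library to library spread, possibly of technical origin. Counting limits cover counting error only.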

Additional observations from a re-analysis of the deposited data

Results flagged for a closer look

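In 5 of the 82 groups of 4 values (41 members in 2 groups) 1 library stood apart from its other 3 by a gap that exceeded Dixon's 95% limit for 4 values. Chance alone gives about 1 in 20 groups, and the share here was 6.10%. SRSF11 had 26.8 FPKM in control library 1, below the other controls at 34.6 to 36.2 FPKM. TRA2B had 16.4 FPKM in DNMT3A library 2, below the other DNMT3A libraries at 17.5 to 17.6 FPKM, and 16.7 FPKM in control library 4, below the other controls at 18.8 to 19.0 FPKM. CLK2 had 5.25 FPKM in control library 3, below the other controls at 6.19 to 6.28 FPKM, and its log2 change was 0.22 without that library. CLK3 had 1.28 FPKM in control library 2, above the other controls at 1.11 to 1.14 FPKM, and its log2 change was 0.27 without that library.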

How the results depend on the processing

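Of 814 values of members under the alternatives, 738 kept their direction and their side of the threshold, 41 (6 members) lost a call and 24 (8 members) gained one. Calls were lost without a filter on level by CLK2, CLK3, HNRNPF and SRSF4 (limma adjusted p = 0.0506 to 0.102), and under quantile normalization by CLK3, HNRNPF and SRSF1 (0.0573 to 0.0644). CLK3 also lost its call with a pseudocount of 0.1 (0.0506). Signs turned for 5 members, none past the threshold: HNRNPR was -0.0128 once length and GC were corrected for, and under quantile normalization HNRNPK was 0.0250 and HNRNPC 0.0431. Leaving out a library gave -0.00703 to 0.144 for HNRNPUL1, -0.0276 to 0.122 for HNRNPAB, -0.0182 to 0.0597 for HNRNPR and -0.0507 to 0.0279 for HNRNPK.

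Members that rose numbered 2 without a filter, 9 with array weights and 2 to 5 with a library left out, and members that fell 4 to 6 with a library left out (4 without control library 2 or 3). Genes past the threshold numbered 1531 with a minimum of 5 FPKM, where fewer genes were tested, 3756 with array weights and 1508 to 2443 with a library left out. Other splicing genes that rose numbered 8 without a filter, 23 with array weights and 8 to 16 with a library left out. Those that fell numbered 8 without a filter, 23 with the length and GC correction and 3 to 15 with a library left out. With the replicate block 2 members rose, 6 fell, 9 other splicing genes fell and 1881 genes passed, and CLK2, CLK3 and SRSF4 lost their calls. Replicate numbers showed no clear pairing of the libraries, whose deviations from the group means correlated at -0.0816 to 0.159 between same numbers. Weak correlation alone cannot show that pairing was absent. The cause of these shifts was not tested.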
